A study of Homo sapiens with 18 samples.

Results

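The genes that copy DNA were followed through 18 messenger RNA libraries of THESC cells, as a list of 44 gene symbols of DNA replication and S phase. All 44 were in the table of 78724 genes, and all 44 passed the filter on low counts that left 15558 genes for testing. The list was chosen with earlier results of these data known, so its shares of calls below are not an independent test. THESC is an immortalised human line of stromal cells from the endometrium, the inner layer of the uterus. The groups compared, with 3 libraries in each, were 3 CRISPR-engineered lines under 2 treatments. Promoter cells carried the guide RNA named Promoter and are labelled PGRB-dominant, U1U2 cells carried the guides named U1U2 and are labelled PGRA/B-equivalent, and NT cells carried the guide named NT and are labelled WT, the control. PGRA and PGRB are the short and long isoforms of the progesterone receptor, whose gene, PGR, was activated in the promoter and U1U2 lines. Each line received 1 µM medroxyprogesterone acetate (MPA), a synthetic progestin, or vehicle (0.01% ethanol) for 72 hours, in both cases with charcoal-stripped serum and after a day in low serum, and all lines had been grown under the antibiotic blasticidin. The labels do not say whether a line is a single clone or whether libraries of a group came from separate cultures, so a p-value here covers the spread between libraries, which may be purely technical.

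A cell copies its genome once per division. In G1 phase the origin recognition complex, CDC6 and CDT1 load the MCM2 to MCM7 ring onto origins, and in S phase CDC45 and the GINS complex turn that ring into the moving helicase, behind which the polymerases, the sliding clamp and the ligase work. Most of these genes are transcribed at the G1 to S transition by E2F factors, once cyclins and their kinases have relieved the repression by the retinoblastoma family. In the endometrium stromal cells divide before ovulation and leave the cell cycle as they become decidual under progesterone.

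E2F motifs were common in the promoters of these genes, and the letters are shown before the expression values. RefSeq promoter windows of 300 bases (250 before and 50 after the transcription start, GRCh38.p14) were at hand for 38 of the 44 genes, in 48 windows, and MCM4, MCM5, GINS4, POLD3, RMI2 and CCNE2 had none. An E2F motif, searched on both strands as TTTCCCGC, TTTGGCGC, TTTCGCGC or TTTGCCGC, lay in 23 of the 48 windows (47.9%), in 22 genes, against 3.31% of all 35116 windows of the same length. The list was drawn up in part from S-phase genes known to be driven by E2F, so this excess was partly built in. Of 64 windows of other replication genes, a list described below, 23.4% held it, and of 49 windows of mitosis genes 8.16%. The CHR element, searched as TTTGAA or TTCGAA and known from promoters of mitosis genes, was in 4.17% of the windows of the replication genes, 69.4% of those of mitosis genes and 16.4% of all windows. The CCAAT box, searched as CCAAT, was in 58.3%, 71.4% and 34.6% of the same sets. Among the windows of other replication genes, 10.9% held the CHR element and 53.1% the CCAAT box. Matches before the start in MCM6, POLA2, POLE, CDT1, LIG1 and POLA1 are not shown. Those in PCNA, MCM7 and UHRF1, genes with more than 1 window, are not shown either. Of all these genes only PCNA was called lower by MPA in promoter cells in the results below. All genes shown but E2F1 were, so the choice does not link motif and response. The stretches that follow show E2F matches, in capitals, that lie before the start in 7 genes, each read 5′ to 3′ on the strand of its gene.
DTL: atcagagagcgtgacgtcagTTTGGCGC
E2F2: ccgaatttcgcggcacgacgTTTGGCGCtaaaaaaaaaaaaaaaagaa
RFC3: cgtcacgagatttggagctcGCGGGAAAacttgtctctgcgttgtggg
GINS2: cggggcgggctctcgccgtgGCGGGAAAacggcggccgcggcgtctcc
TYMS: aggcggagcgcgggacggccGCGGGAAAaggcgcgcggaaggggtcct
MCM3: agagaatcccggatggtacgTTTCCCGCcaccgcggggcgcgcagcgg
E2F1: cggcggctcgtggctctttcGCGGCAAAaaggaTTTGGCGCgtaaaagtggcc
They lie at chr1:212035720-212035747 (plus strand), chr1:23531248-23531295 (minus), chr13:33818074-33818121 (plus), chr16:85688958-85689005 (minus), chr18:657594-657641 (plus), chr6:52284889-52284936 (minus) and chr20:33686386-33686438 (minus), and E2F1 holds 2 matches. MCM3 has a further match, TTTCGCGC, that begins 4 bases before the start and is not in its stretch. In RFC3, GINS2 and TYMS the capitals read GCGGGAAA, the reverse complement of TTTCCCGC. Some matches overlap, as in MCM6, where TTTGGCGC and the complement of TTTCGCGC share bases, and matches were counted once per window. A match describes letters in a window, not a bound site.

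Total counts ran from 11.9 to 33.4 M per library, and those of NT cells in vehicle, at 11.9 to 20.8 M, were the lowest as a group on average. The PGR gene itself was higher by 1.63 (log2) in promoter cells and 2.09 in U1U2 cells than in NT cells, both in vehicle, and FKBP5, a target of steroid receptors, rose under MPA by 4.07 in promoter, 3.46 in U1U2 and 2.89 in NT cells. Stromal markers were abundant, with 13 genes summing to 11057 to 18444 CPM (counts scaled to 1 M per library). CLDN3, CLDN5 and CD3E, markers of epithelial, endothelial and T cells, had 0 counts in all 18 libraries, PECAM1 0 to 4, CDH5 0 to 2, EPCAM 3 to 34 and PTPRC 33 to 143. Other markers of such cells were present, and KRT8, KRT18, KRT19, MUC1, EPCAM, TEK and PTPRC passed the filter on low counts. Epithelial markers summed to 21.2 to 53.5 CPM, endothelial markers to 42.3 to 74.9 and leukocyte markers to 2.01 to 5.86.

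The 44 genes were most abundant in promoter cells in vehicle and lower in the other 5 groups. Their summed level was 1009 ± 52.2 CPM in promoter cells in MPA and 1417 ± 94.0 CPM in promoter cells in vehicle (SD, n = 3 each). In U1U2 cells it was 1039 ± 21.9 CPM in MPA and 1099 ± 60.6 CPM in vehicle, and in NT cells 999.6 ± 98.4 CPM in MPA and 934 ± 30.9 CPM in vehicle. The highest of the 6 group means fell to promoter cells in vehicle for 42 of the 44 genes, and for 19 genes all 3 of those libraries lay above the other 15. The lowest group mean fell to NT cells in vehicle for 27 genes and to NT cells in MPA for 9, and in vehicle the U1U2 mean lay between the NT and promoter means for 41. A lower level in a bulk library can come from fewer cells in S phase or from less of the RNA in each cell, and these cannot be told apart.

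**Figure D1:**
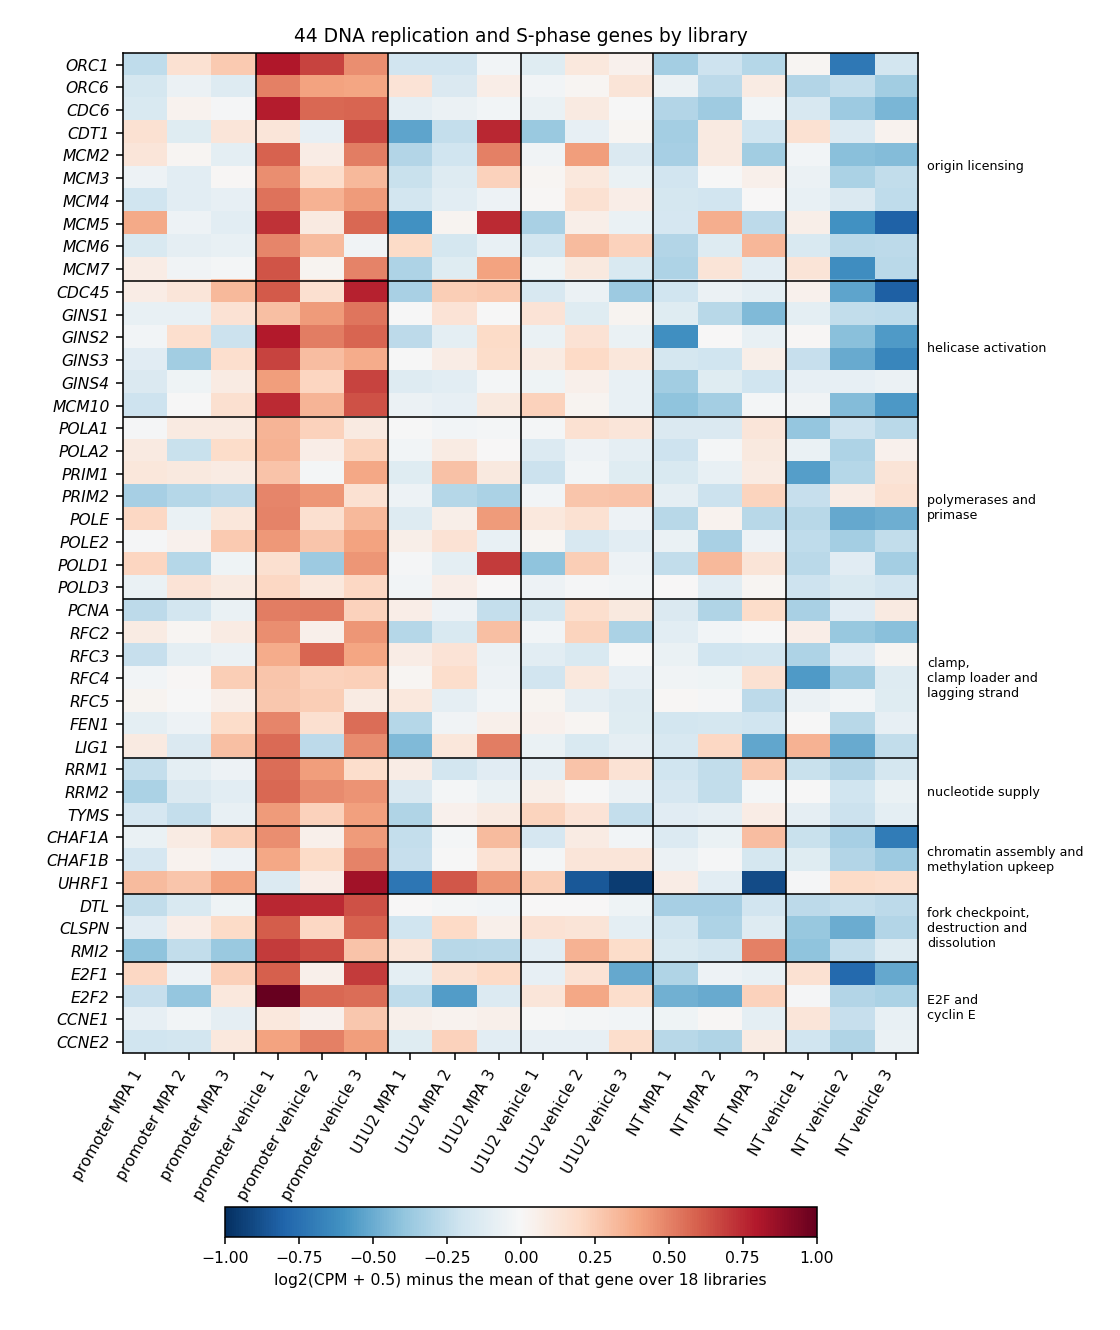
Each row is 1 of the 44 genes, ordered by role, and each column 1 of the 18 libraries; colour gives log2(CPM + 0.5) minus that gene's mean over the 18 libraries, on a scale that stops at -1 and 1. The 3 columns of promoter cells in vehicle are the reddest, and 42 of the 44 genes have their highest group mean there.

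Per kilobase of exon (GENCODE 29) the levels spanned a wide range. Exon length was the union over all annotated transcripts, 4902 bases for MCM2 and 7338 for MCM5. It can exceed the length of the transcripts expressed, so ranks between genes are approximate. Averaged over the 18 libraries, PCNA, the sliding clamp, was the most abundant at 51.3 CPM per kb, ahead of RRM1 at 32.3 and RRM2 at 24.9, the large and small subunits of ribonucleotide reductase, and of MCM6 at 22.4. MCM3 had 12.5 and MCM4 11.7 CPM per kb, whereas MCM2 had 1.02 and MCM5 0.630, although the 6 proteins form 1 ring. At the low end were E2F2 at 0.216, the licensing factor CDT1 at 0.196 and POLD1, the catalytic subunit of polymerase delta, at 0.149 CPM per kb.

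MPA lowered many replication genes of promoter cells, though only 1 of 8 polymerase and primase genes. Of the 44 genes, 23 fell and 0 rose at an adjusted p under 0.05 (edgeR's quasi-likelihood test, Benjamini-Hochberg over all 15558 genes, here called), whereas 8.4% of all genes tested were called lower and 15% in either direction. The median log2 fold change was -0.44, against -0.00 over all genes, and 43 of 44 values were negative. Every MPA library lay below every vehicle library for 26 genes, as it did for 18.1% of all genes. By role, 5 of 10 licensing genes, 5 of 6 helicase activation genes, 1 of 8 polymerase and primase genes, 3 of 7 genes of the clamp, its loader and the lagging strand, 3 of 3 nucleotide supply genes, 1 of 3 chromatin genes, 3 of 3 fork checkpoint and dissolution genes and 2 of 4 E2F and cyclin E genes fell. Among all genes tested DESeq2 called 2492, and among the 44 it called 23 too. The count was 12 without promoter MPA replicate 1 and 14 without promoter vehicle replicate 1, and 11 genes were called under every alternative, namely ORC6, CDC6, MCM4, PRIM2, PCNA, RFC3, RRM2, TYMS, DTL, RMI2 and E2F2.

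In vehicle, promoter cells stood above NT cells in replication genes of every role. Of the 44 genes, 30 were higher and 0 lower, against 3.07% of all genes higher and 6.75% called in either direction. The median log2 difference was 0.63, against -0.00 over all genes, and all 44 values were positive. For 34 genes every promoter library lay above every NT library, as for 10% of all genes. All 6 helicase activation genes, all 3 nucleotide supply genes and all 3 fork checkpoint and dissolution genes were higher, with 5 of 10 licensing genes, 4 of 8 polymerase and primase genes, 4 of 7 genes of the clamp group, 2 of 3 chromatin genes and 3 of 4 E2F and cyclin E genes. At an unadjusted p under 0.05, 39 were higher. No share of all genes is given for an unadjusted p, here or below, so such counts have no background. DESeq2 called 35, against 1307 of all genes in either direction. Without NT vehicle replicate 2 the count was 19, and 16 genes were called under every alternative. This comparison and the MPA response of promoter cells use the same 3 promoter vehicle libraries, so they are not independent, and the values of both stand side by side in what follows.

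Among the licensing genes, CDC6, the ATPase that helps to load the MCM ring, had 16.9, 19.4 and 18.7 CPM in promoter cells in MPA, against 32.9, 28.4 and 28.6 CPM in promoter cells in vehicle. It had 17.8, 18.2 and 18.6 CPM in U1U2 cells in MPA and 18.01, 20.2 and 18.9 in U1U2 cells in vehicle, and 15.4, 14.7 and 18.6 in NT cells in MPA and 16.9, 14.6 and 13.7 in NT cells in vehicle. The promoter vehicle libraries were the 3 highest of the 18, with no overlap with any other group. CDC6 fell with MPA in promoter cells, with a log2 fold change of -0.71 ± 0.11 (SE; adjusted p = 0.000127) and was higher in promoter than NT cells in vehicle by 1.00 ± 0.11 (adjusted p = 6.77e-05). MCM4, a subunit of the ring, had 70.5, 75.2 and 76.4 CPM in promoter cells in MPA, against 118, 103 and 109 in promoter cells in vehicle. The highest of its other 15 libraries was a U1U2 vehicle library at 89.8 CPM. MCM4 changed by -0.57 ± 0.08 with MPA (adjusted p = 4.63e-05) and stood 0.60 ± 0.08 above NT cells in vehicle (adjusted p = 0.000257).

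ORC6, the smallest subunit of the origin recognition complex, had 11.04, 11.98 and 11.4 CPM in promoter cells in MPA, against 18.01, 16.8 and 16.6 in promoter cells in vehicle, and again no other library reached the vehicle values. Its MPA response there was -0.58 ± 0.11 (adjusted p = 0.00113) and its difference from NT cells in vehicle 0.76 ± 0.11 (adjusted p = 0.000603). ORC1, the largest subunit, also had its 3 highest libraries there, with 3.65, 5.02 and 5.46 CPM in promoter cells in MPA, against 8.14, 7.41 and 6.35 in promoter cells in vehicle (-0.63 ± 0.18, adjusted p = 0.0250). It was 1.03 ± 0.19 above NT cells in vehicle. MCM3 was the remaining licensing gene that passed both tests, with -0.38 ± 0.11 and 0.54 ± 0.12.

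MCM2, another subunit of the ring, passed neither test. It had 5.35, 4.95 and 4.52 CPM in promoter cells in MPA, against 7.57, 5.15 and 7.15 in promoter cells in vehicle, which overlap. Elsewhere it had 3.89, 4.16 and 7.09 CPM in U1U2 cells in MPA and 4.75, 6.65 and 4.35 in U1U2 cells in vehicle, and 3.77, 5.22 and 3.72 in NT cells in MPA and 4.77, 3.53 and 3.47 in NT cells in vehicle. Replicates of MCM2 spread widely, and U1U2 MPA replicate 3 was the third highest of the 18 libraries. Its log2 values were -0.44 ± 0.23 for MPA in promoter cells and 0.78 ± 0.25 for promoter against NT cells in vehicle (adjusted p = 0.244 and 0.0662). MCM5, MCM6, MCM7 and CDT1 had log2 fold changes for MPA in promoter cells of -0.44 ± 0.31, -0.38 ± 0.16, -0.41 ± 0.20 and -0.43 ± 0.44 and did not pass the test, although every MPA library of MCM6 lay below every vehicle library. CDT1 rested on 6 to 46 counts per library.

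Helicase activation was the role with the largest median difference between promoter and NT cells in vehicle, 0.98. CDC45, which joins the MCM ring at the start of S phase, had 5.39, 5.59 and 6.50 CPM in promoter cells in MPA, against 8.08, 5.77 and 9.07 in promoter cells in vehicle. It had 3.98, 6.16 and 6.20 CPM in U1U2 cells in MPA and 4.51, 4.87 and 3.87 in U1U2 cells in vehicle, and 4.37, 4.87 and 4.75 in NT cells in MPA and 5.27, 3.38 and 2.69 in NT cells in vehicle. The promoter vehicle libraries overlapped those in MPA but lay above all 3 NT vehicle libraries, and only the second difference passed (-0.41 ± 0.21, adjusted p = 0.235, for MPA and 1.05 ± 0.23, adjusted p = 0.00854, for the lines).

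The 4 subunits of GINS moved alike in sign. GINS2 had 7.46, 8.60 and 6.50 CPM in promoter cells in MPA, against 13.5, 11.05 and 11.6 in promoter cells in vehicle, with 4.81, 7.62 and 7.22 in NT cells in MPA and 7.70, 5.57 and 4.98 in NT cells in vehicle. Its responses were -0.68 ± 0.19 for MPA in promoter cells (adjusted p = 0.0171) and 1.00 ± 0.19 for promoter against NT cells (adjusted p = 0.00384). GINS3 had -0.61 ± 0.17 and 1.04 ± 0.18, GINS4 -0.51 ± 0.12 and 0.56 ± 0.13, and GINS1 -0.43 ± 0.11 and 0.64 ± 0.11 in the same order, all past the threshold. MCM10, which helps the helicase to start, had 11.1, 12.9 and 14.5 CPM in promoter cells in MPA, against 21.97, 16.5 and 20.4 in promoter cells in vehicle (-0.62 ± 0.16, adjusted p = 0.0109), and was 0.96 ± 0.16 above NT cells in vehicle.

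**Figure D2:**
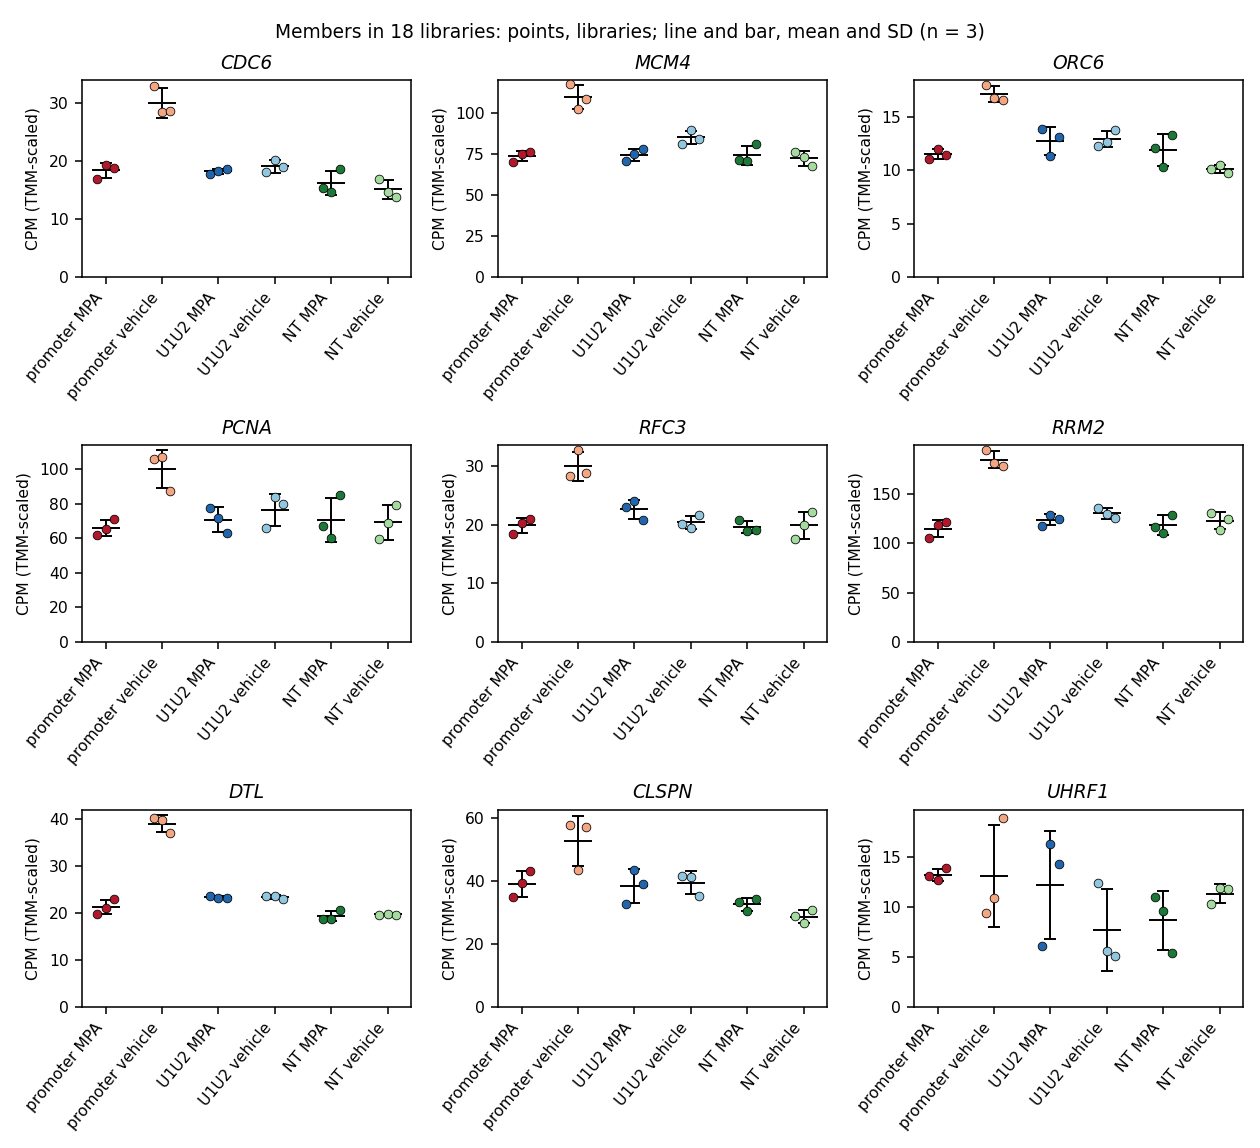
CPM of 9 genes in every library, by group; points are libraries, the horizontal line is the mean and the bar the SD (n = 3), and each axis starts at 0. DTL, CDC6, RRM2 and MCM4 stand apart in promoter cells in vehicle, where DTL reached 36.9 to 40.0 CPM, whereas UHRF1 spreads from 5.15 to 19.0 CPM without following the groups.

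The polymerases and primase had the lowest share of genes called for MPA, 1 of 8. POLA1, the catalytic subunit of the polymerase that lays down primers, had 32.8, 35.3 and 35.3 CPM in promoter cells in MPA, against 41.96, 38.8 and 35.1 in promoter cells in vehicle. It had 33.03, 32.4 and 32.6 CPM in U1U2 cells in MPA and 32.6, 36.7 and 35.96 in U1U2 cells in vehicle, and 29.9, 29.8 and 35.98 in NT cells in MPA and 25.2, 28.5 and 27.4 in NT cells in vehicle. NT cells in vehicle held the 3 lowest libraries, and the promoter libraries in MPA overlapped those in vehicle by a narrow margin. POLA1 was 0.51 ± 0.09 above NT cells in vehicle (adjusted p = 0.00292), and its MPA response in promoter cells was -0.17 ± 0.09 (adjusted p = 0.274). POLE and POLE2, subunits of the leading-strand polymerase epsilon, were higher than in NT cells by 0.81 ± 0.16 and 0.68 ± 0.12, and POLD3, a subunit of polymerase delta, by 0.36 ± 0.08. None of these passed for MPA in promoter cells, where the values were -0.26 ± 0.15, -0.28 ± 0.12 and -0.12 ± 0.08.

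The called gene was PRIM2, the large subunit of primase, which had 37.4, 38.7 and 39.3 CPM in promoter cells in MPA, against 66.5, 64.5 and 52.5 in promoter cells in vehicle (-0.67 ± 0.13, adjusted p = 0.00149). In U1U2 cells it had 45.5, 38.8 and 37.9 CPM in MPA, against 46.3, 57.5 and 57.6 in vehicle (-0.40 ± 0.13, adjusted p = 0.0551), and in NT cells 44.5, 40.7 and 55.2 in MPA, against 40.2, 49.8 and 52.7 in vehicle (-0.03 ± 0.13). MPA libraries lay below all vehicle libraries in promoter and in U1U2 cells and overlapped them in NT cells. Promoter cells were 0.36 ± 0.13 above NT cells in vehicle, which did not pass. PRIM2 and PCNA have near-identical copies elsewhere in the genome, so their counts may have gained or lost shared reads.

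Of the clamp group, PCNA, the ring that holds polymerases on DNA, had 61.8, 65.2 and 71.1 CPM in promoter cells in MPA, against 106, 107 and 87.2 in promoter cells in vehicle. It had 77.7, 71.7 and 62.9 CPM in U1U2 cells in MPA and 65.6, 83.6 and 79.7 in U1U2 cells in vehicle, and 67.1, 60.2 and 84.7 in NT cells in MPA and 59.3, 68.7 and 79.2 in NT cells in vehicle. The promoter vehicle libraries lay above every library of the other groups. MPA changed PCNA by -0.60 ± 0.14 in promoter cells (adjusted p = 0.00487), and the lines differed by 0.53 ± 0.14 in vehicle (adjusted p = 0.0240). RFC3, a subunit of the clamp loader, had 18.5, 20.2 and 20.9 CPM in promoter cells in MPA, against 28.3, 32.8 and 28.7 in promoter cells in vehicle (-0.59 ± 0.10, adjusted p = 0.000424), and was 0.59 ± 0.10 above NT cells. The other loader subunits in the set, RFC2, RFC4 and RFC5, had MPA responses between -0.29 ± 0.18 and -0.17 ± 0.12, none called. FEN1, the nuclease that trims Okazaki fragments, passed both tests (-0.41 ± 0.12 and 0.55 ± 0.12), although its libraries in MPA and vehicle overlapped in promoter cells. LIG1, the ligase that joins those fragments, passed neither.

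All 3 genes of nucleotide supply passed both tests. RRM2, the S-phase subunit of ribonucleotide reductase, had 105, 118 and 121 CPM in promoter cells in MPA, against 195, 181 and 178 in promoter cells in vehicle. It had 118, 129 and 124 CPM in U1U2 cells in MPA and 136, 129.9 and 125 in U1U2 cells in vehicle, and 116, 109.9 and 129 in NT cells in MPA and 130.3, 113 and 124 in NT cells in vehicle. Promoter cells in vehicle held the 3 highest libraries, and the other 15 ran from 105 to 136 CPM. The log2 values were -0.69 ± 0.08 for MPA in promoter cells (adjusted p = 8.06e-06) and 0.59 ± 0.08 for promoter against NT cells in vehicle (adjusted p = 0.000358). RRM1 had -0.52 ± 0.13 and 0.62 ± 0.13, and TYMS, thymidylate synthase, -0.53 ± 0.13 and 0.51 ± 0.13.

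CHAF1B, a subunit of the histone chaperone that builds nucleosomes behind the fork, fell by MPA in promoter cells (-0.44 ± 0.12, adjusted p = 0.0179) and was 0.65 ± 0.12 above NT cells in vehicle. Its partner CHAF1A differed between the lines in vehicle (0.79 ± 0.19, adjusted p = 0.0145), and its MPA response was -0.26 ± 0.18. UHRF1, which brings the maintenance methyltransferase to new DNA, did not have its highest group mean in promoter cells in vehicle. Nor did POLD1, at low levels, with a mean of 0.934 CPM in U1U2 cells in MPA, against 0.810 in promoter cells in vehicle. UHRF1 had 13.1, 12.7 and 13.9 CPM in promoter cells in MPA and 9.43, 10.9 and 18.95 in promoter cells in vehicle. It had 6.09, 16.3 and 14.3 CPM in U1U2 cells in MPA and 12.4, 5.56 and 5.15 in U1U2 cells in vehicle, and 10.998, 9.64 and 5.37 in NT cells in MPA and 10.3, 11.96 and 11.8 in NT cells in vehicle. Replicates differed widely in every group but promoter cells in MPA and NT cells in vehicle. The spread within groups, an SD of 0.503 on log2(CPM + 0.5), was the largest of the 44 genes, whose median was 0.174. Its log2 values were 0.00 ± 0.35 and 0.21 ± 0.36, neither called, and the sign of both depended on the libraries used.

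DTL had the tightest replicates of the 44 genes, with a within-group SD of 0.0606 on the same scale. DTL is the substrate receptor of the ubiquitin ligase that destroys CDT1 during S phase. It had 19.8, 21.1 and 22.8 CPM in promoter cells in MPA, against 40.04, 39.8 and 36.9 in promoter cells in vehicle. It had 23.6, 23.2 and 23.1 CPM in U1U2 cells in MPA and 23.6, 23.6 and 22.8 in U1U2 cells in vehicle, and 18.6, 18.6 and 20.5 in NT cells in MPA and 19.5, 19.8 and 19.6 in NT cells in vehicle. In U1U2 and in NT cells the MPA and vehicle libraries overlapped, and the highest of the 15 libraries outside promoter vehicle was at 23.6 CPM. The MPA response in promoter cells was -0.87 ± 0.08 (adjusted p = 3.06e-07), and promoter cells in vehicle were 0.99 ± 0.08 above NT cells (adjusted p = 3.85e-06) and 0.74 ± 0.08 above U1U2 cells (adjusted p = 0.000162).

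CLSPN, claspin, which passes the fork checkpoint signal to its kinase, had 34.8, 39.4 and 43.1 CPM in promoter cells in MPA, against 57.6, 43.4 and 57.03 in promoter cells in vehicle. It had 32.7, 43.3 and 39.1 CPM in U1U2 cells in MPA and 41.6, 41.3 and 35.1 in U1U2 cells in vehicle, and 33.1, 30.3 and 34.3 in NT cells in MPA and 28.9, 26.5 and 30.6 in NT cells in vehicle. The promoter vehicle libraries were the 3 highest, by a small margin in replicate 2, and NT vehicle held the 2 lowest. CLSPN had -0.44 ± 0.12 for MPA in promoter cells (adjusted p = 0.0228) and 0.88 ± 0.13 for promoter against NT cells (adjusted p = 0.000443). RMI2, a subunit of the complex that dissolves joined DNA molecules, had 7.61, 8.52 and 7.77 CPM in promoter cells in MPA, against 16.9, 16.3 and 12.5 in promoter cells in vehicle (-0.93 ± 0.19, adjusted p = 0.00192). In NT cells it had 9.14, 8.95 and 14.7 in MPA and 7.61, 8.58 and 9.30 in vehicle, where MPA replicate 3 lay above the other 5. Promoter cells were 0.84 ± 0.19 above NT cells in vehicle.

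E2F2, an activator of S-phase genes, had the largest fold change of the 44 in both comparisons, at low levels. It had 0.866, 0.723 and 1.22 CPM in promoter cells in MPA, against 2.73, 1.88 and 1.86 in promoter cells in vehicle, with 0.843, 0.588 and 0.955 in U1U2 cells in MPA and 1.24, 1.59 and 1.31 in U1U2 cells in vehicle. In NT cells it had 0.649, 0.632 and 1.38 in MPA and 1.09, 0.810 and 0.786 in vehicle, so that in promoter and U1U2 cells the MPA libraries lay below all vehicle libraries. These levels are 12 to 87 counts per library. E2F2 changed by -1.23 ± 0.28 with MPA in promoter cells (adjusted p = 0.00433) and stood 1.31 ± 0.31 above NT cells in vehicle (adjusted p = 0.0121).

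E2F1, the best known activator of the family, had 2.37, 1.90 and 2.44 CPM in promoter cells in MPA, against 3.27, 2.07 and 3.53 in promoter cells in vehicle. It had 1.83, 2.26 and 2.35 CPM in U1U2 cells in MPA and 1.84, 2.25 and 1.25 in U1U2 cells in vehicle, and 1.52, 1.90 and 1.86 in NT cells in MPA and 2.26, 0.953 and 1.24 in NT cells in vehicle. The promoter vehicle libraries overlapped those in MPA and, through replicate 2, those of NT cells in vehicle. The line difference in vehicle passed (1.09 ± 0.29, adjusted p = 0.0302), though not in 6 of 13 alternatives, and the MPA response in promoter cells did not (-0.44 ± 0.26, adjusted p = 0.308). CCNE2, one of the cyclin E genes that drive entry into S phase, had 5.50, 5.59 and 6.91 CPM in promoter cells in MPA, against 8.61, 9.29 and 8.74 in promoter cells in vehicle. It had 5.86, 7.60 and 5.93 CPM in U1U2 cells in MPA and 6.04, 6.03 and 7.29 in U1U2 cells in vehicle, and 5.20, 5.09 and 6.81 in NT cells in MPA and 5.52, 5.10 and 6.09 in NT cells in vehicle. All 3 promoter vehicle libraries exceeded the other 15, and CCNE2 had -0.57 ± 0.15 and 0.67 ± 0.16 in the 2 comparisons. CCNE1, the other cyclin E, had -0.23 ± 0.12 and 0.23 ± 0.13, not called.

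**Figure D3:**
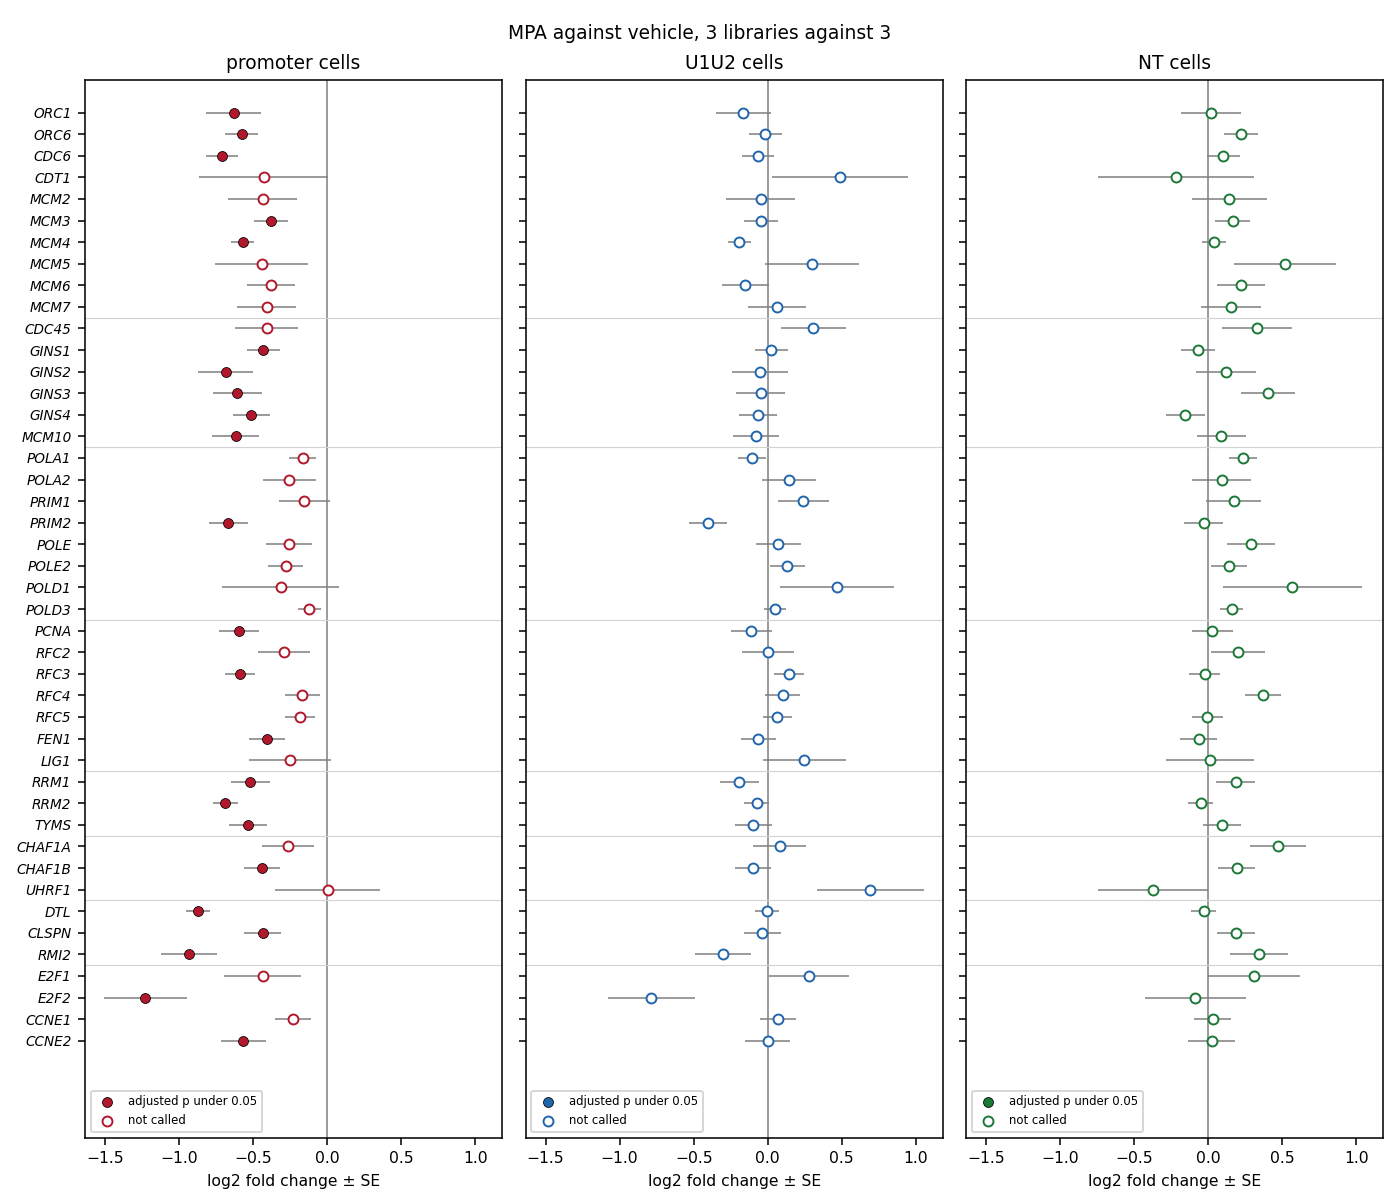
Log2 fold change of MPA over vehicle with its SE for each of the 44 genes, in promoter, U1U2 and NT cells (3 libraries against 3); filled points passed an adjusted p under 0.05. In promoter cells 23 points are filled, all left of 0, and in the other lines none is filled and the points straddle 0.

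U1U2 and NT cells showed no call in the replication genes under MPA. In U1U2 cells edgeR called 0 of the 44, against 11.7% of all genes, with 3 lower at an unadjusted p under 0.05. DESeq2 called 1 lower, against 1968 of all genes in either direction. The median log2 fold change was -0.01, against 0.03 over all genes, with 24 values negative and 20 positive. In NT cells edgeR called 0, against 5.93% of all genes, with 4 higher at an unadjusted p under 0.05. DESeq2 called 0, against 1041 of all genes. The NT median was 0.13, against 0.02 over all genes, and 33 of 44 values were positive, among them RFC4 (0.37 ± 0.12, adjusted p = 0.0913), the nearest to the threshold. Without U1U2 vehicle replicate 1 there were 2 calls in U1U2 cells and without U1U2 MPA replicate 1 there was 1, and without NT vehicle replicate 3 there was 1 in NT cells. The SE of a gene's log2 fold change had a median of 0.144 in U1U2 and 0.149 in NT cells, and a missed threshold does not show that a gene stayed the same.

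In MPA no replication gene was called between the lines. Promoter against NT cells gave 0 calls among the 44 (4.15% of all genes), with 2 higher and 2 lower at an unadjusted p under 0.05, a median log2 difference of 0.10, against -0.02 over all genes, and 32 of 44 values positive. U1U2 against NT cells gave 0 (1.72% of all genes), with 2 higher unadjusted, a median of 0.13, against 0.00 over all genes, and 39 of 44 values positive. Promoter against U1U2 cells gave 0 (0.328% of all genes), with 0 unadjusted, a median of -0.02, against -0.02 over all genes, and 19 of 44 values positive. DESeq2 called 0 in all 3 of these comparisons, against 768, 359 and 86 of all genes in the same order. The comparisons share libraries with one another.

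**Figure D4:**
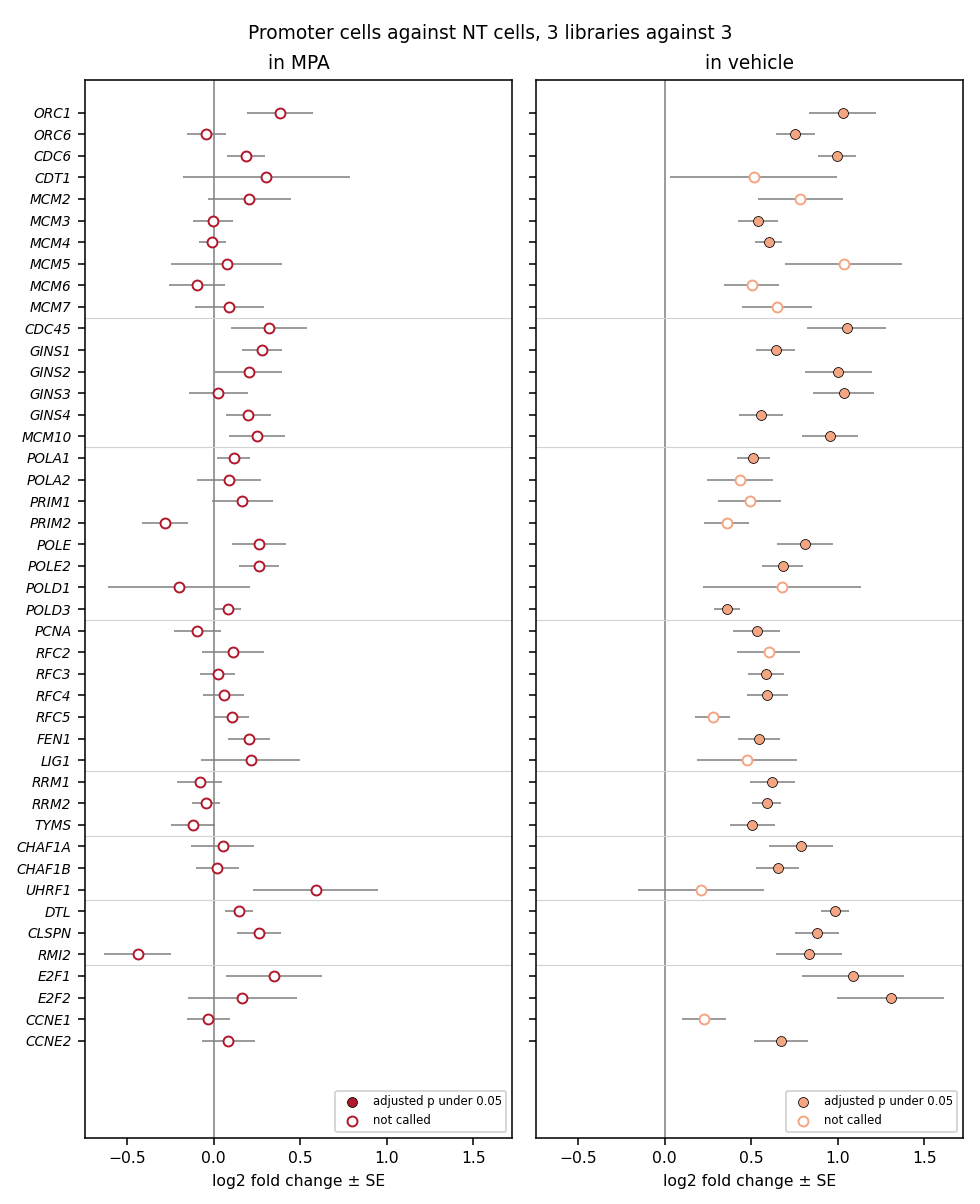
Log2 difference of promoter over NT cells with its SE for each of the 44 genes, in MPA and in vehicle (3 libraries against 3); filled points passed an adjusted p under 0.05. In MPA none is filled and the median is 0.10, and in vehicle 30 are filled, all right of 0, and the median is 0.63.

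In vehicle U1U2 cells lay between the other lines. Against NT cells edgeR called 0 of the 44 (1.14% of all genes), with 16 higher at an unadjusted p under 0.05. DESeq2 called 3 higher, against 445 of all genes in either direction. The median log2 difference was 0.24, against -0.00 over all genes, 42 values were positive, and for 15 genes every U1U2 library lay above every NT library, as for 8.23% of all genes. Leaving out U1U2 vehicle replicate 1 gave 1 call. Nearest to the threshold were POLA1 (0.38 ± 0.09, adjusted p = 0.0626), GINS3 (0.67 ± 0.18, adjusted p = 0.0760) and CLSPN (0.46 ± 0.13, adjusted p = 0.0882).

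Promoter cells in vehicle were higher than U1U2 cells in vehicle in 5 of the 44 genes and lower in 0, against 0.527% of all genes higher and 0.784% in either direction. They were DTL (0.74 ± 0.08), CDC6 (0.66 ± 0.11, adjusted p = 0.00689), RFC3 (0.55 ± 0.10, adjusted p = 0.0126), RRM2 (0.50 ± 0.08, adjusted p = 0.00633) and MCM4 (0.37 ± 0.08, adjusted p = 0.0349). All 44 values were positive, with a median of 0.41 against 0.01 over all genes, and for 30 genes every promoter library lay above every U1U2 library, as for 6.09% of all genes. DESeq2 called 14 of the 44, against 251 of all genes, and a fit to these 2 groups alone called 1, against 11 of all genes. The count was 2 without U1U2 vehicle replicate 3, 3 without U1U2 vehicle replicate 1 or 2 and 3 without promoter vehicle replicate 2 or 3. DTL was called under every alternative, whereas MCM4 lost its call in 11 of 13 and RFC3 in 6 of 13. The log2 difference of PGR between these lines in vehicle was -0.46 ± 0.12, not called.

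The difference between MPA responses was tested directly. Both differences with promoter cells use the same 3 promoter vehicle libraries as the tests above. So does promoter against U1U2 cells in vehicle, and these results are not independent. For promoter minus NT cells, 7 of the 44 genes had a lower response and 0 a higher one, against 0.752% of all genes lower and 1.56% in either direction. They were RMI2 (-1.28 ± 0.27), GINS3 (-1.01 ± 0.25), DTL (-0.84 ± 0.12), CDC6 (-0.81 ± 0.16), ORC6 (-0.80 ± 0.16), RRM2 (-0.63 ± 0.12) and MCM4 (-0.61 ± 0.11), with adjusted p-values from 0.000590 for DTL to 0.0476 for GINS3. The median difference was -0.60, against -0.03 over all genes, and 43 of 44 were negative. At an unadjusted p under 0.05, 29 were lower, and DESeq2 called 11, against 422 of all genes. The count was 3 without promoter vehicle replicate 1 or promoter MPA replicate 1 and 4 without NT vehicle replicate 2, and MCM4, RRM2 and DTL were called under every alternative. GINS3 lost its call in 15 of 19 alternatives, RMI2 in 6, ORC6 in 4 and CDC6 in 3.

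For promoter minus U1U2 cells all 44 differences were negative, with a median of -0.44 against -0.03 over all genes, and only DTL passed (-0.87 ± 0.11, adjusted p = 0.00837), 1 of only 2 genes called among all 15558 (0.0129%). At an unadjusted p under 0.05, 18 were lower, and DESeq2 called 4, against 52 of all genes. The call of DTL was lost in 4 of 19 alternatives, among them leaving out promoter MPA replicate 1 or U1U2 MPA replicate 2 and a fit to the 4 groups alone. For U1U2 minus NT cells edgeR called 0 of the 44 (0.219% of all genes), with 2 lower at an unadjusted p under 0.05. The median was -0.17, and DESeq2 called 0, against 113 of all genes.

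Other replication genes, a list of 58 of which 57 were tested, had smaller medians than the 44. Under MPA in promoter cells 13 fell (8.4% of all genes tested fell), with a median log2 fold change of -0.25. They included CDK2, the kinase of cyclin E and cyclin A (-0.62 ± 0.09), TK1, thymidine kinase (-1.06 ± 0.28), the histone chaperone ASF1B (-0.98 ± 0.22), the exonuclease EXO1 (-0.54 ± 0.10) and CCNA2, cyclin A (-0.49 ± 0.09). In vehicle 20 were higher in promoter than NT cells (3.07% of all genes), with a median of 0.36, among them BLM, the helicase that works with RMI2 (0.95 ± 0.15), EXO1 (0.89 ± 0.10) and CDC25A, a phosphatase that activates CDK2 (0.88 ± 0.15). CDK2, CCNA2, EXO1 and WDHD1 were also higher in promoter than U1U2 cells in vehicle. In U1U2 cells RPA2, of the single-strand binding complex, fell with MPA (-0.27 ± 0.08), where the list's median was 0.03, and in NT cells the median was 0.09.

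Genes of mitosis, the later phase, changed in the same 2 comparisons. Their list, like the others here, was chosen with earlier results of these data known. Of 49 tested from a list of 50, 37 fell with MPA in promoter cells (8.4% of all genes), with a median of -0.52, and 41 were higher in promoter than NT cells in vehicle (3.07% of all genes), with a median of 0.68. CDK1, the mitotic kinase, had -0.69 ± 0.11 and 0.69 ± 0.11, CCNB1, cyclin B1, -0.91 ± 0.21 and 0.95 ± 0.22, and TOP2A, topoisomerase II alpha, -0.57 ± 0.13 and 0.76 ± 0.13. The median MPA response of the mitosis genes was 0.02 in U1U2 and 0.05 in NT cells. For the difference of MPA responses, promoter minus NT, 13 of the 49 were called lower (0.752% of all genes). The sum of the mitosis genes was 3000 ± 311 CPM in promoter cells in MPA, against 4175 ± 230 CPM in promoter cells in vehicle (SD, n = 3 each).

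**Figure D5:**
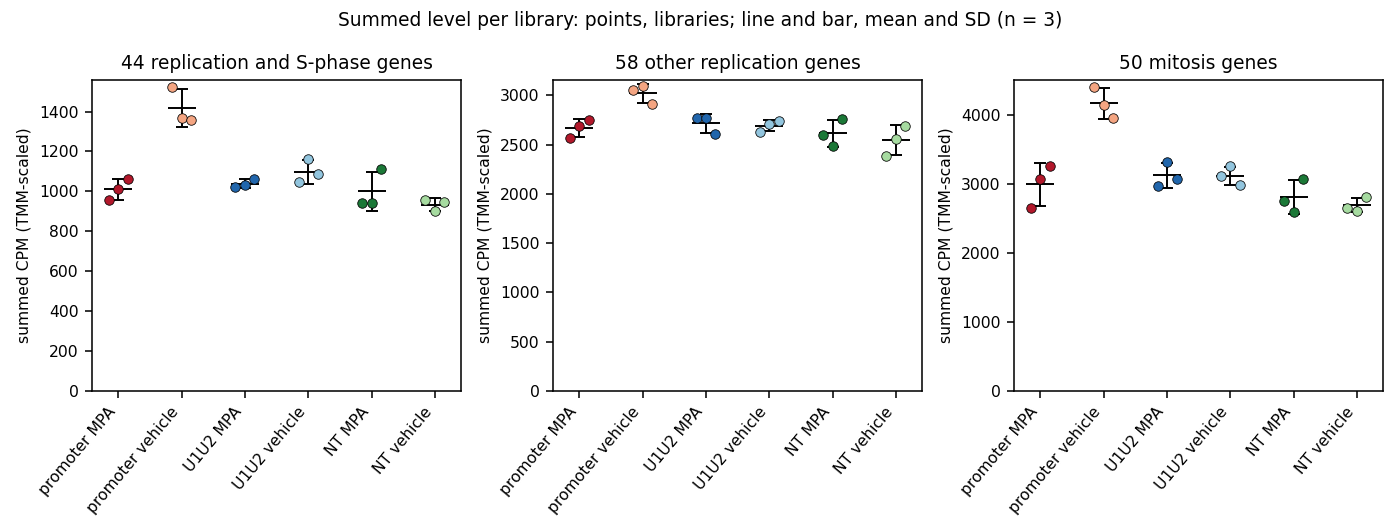
Summed CPM per library of the 44 replication and S-phase genes, of 58 other replication genes and of 50 mitosis genes, by group; points are libraries, the line is the mean and the bar the SD (n = 3), and each axis starts at 0. In all 3 panels promoter cells in vehicle are highest, with 1417 CPM for the 44 genes.

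Genes with and without an E2F motif in their window had close medians. The 22 genes with it had a median MPA response of -0.43 in promoter cells, with 11 called, and the 16 without it -0.41, with 8 called. Of all genes tested, 8.4% were called lower in that comparison. For promoter against NT cells in vehicle the medians were 0.65 with the motif, with 15 called, and 0.61 without it, with 10 called. There 3.07% of all genes were called higher.

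Levels of cell type markers and of mitochondrial genes also differed between the groups. Of the stromal markers, MPA in promoter cells lowered LUM (-0.82 ± 0.14), HOXA11 (-0.58 ± 0.09) and HOXA10 (-0.49 ± 0.16). It raised HAND2 (1.83 ± 0.20), COL1A1 (0.88 ± 0.17) and PDGFRA (0.30 ± 0.09), and the other stromal markers were not called. Summed endothelial markers were 42.3 to 43.4 CPM in promoter cells in MPA, against 72.6 to 74.9 in promoter cells in vehicle, and nearly all of it was TEK, while CLDN5 was at 0 and PECAM1 and CDH5 near 0. In NT cells the same sum was 44.1 to 46.4 CPM in MPA, against 55.2 to 59.0 in vehicle, and in U1U2 cells 45.4 to 50.6 in MPA, against 66.8 to 74.6 in vehicle. Summed leukocyte markers, mostly PTPRC, were 2.37 to 2.82 CPM in promoter cells in MPA, against 4.48 to 4.83 in promoter cells in vehicle, 2.01 to 2.28 in U1U2 cells in MPA, against 3.75 to 4.33 in U1U2 cells in vehicle, and 2.09 to 2.61 in NT cells in MPA, against 4.60 to 5.86 in NT cells in vehicle. They were thus lower in MPA in all 3 lines, and in vehicle not higher in promoter than in NT cells. Summed epithelial markers were 27.7 to 36.2 CPM in promoter cells in MPA, against 38.5 to 53.5 in promoter cells in vehicle, with CLDN3 at 0. They were 21.2 to 42.1 CPM in U1U2 cells in MPA, against 34.8 to 46.0 in U1U2 cells in vehicle, and 24.2 to 36.6 in NT cells in MPA, against 29.3 to 44.7 in NT cells in vehicle. In promoter cells MPA lowered KRT19 (-1.19 ± 0.30) and EPCAM (-1.38 ± 0.45), and KRT8, KRT18 and MUC1 were not called. Mitochondrial genes took 2.01% to 2.15% of counts in promoter cells in MPA, against 1.63% to 2.15% in promoter cells in vehicle, and 2.51% to 3.03% in NT cells in vehicle. The part of these in the results was not tested.

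Reads of several genes could not be assigned with certainty, since the strand setting of the counting was not given in the sources used here. CCNE2 overlaps INTS8, RFC4 overlaps EIF4A2, RFC5 overlaps WSB2, GINS2 overlaps GSE1, CHAF1A overlaps UBXN6, MCM2 overlaps TPRA1, MCM7 overlaps AP4M1 and TYMS overlaps ENOSF1 on the opposite strand, and CHAF1B overlaps MORC3, FEN1 overlaps FADS2 and PRIM1 overlaps NACA on the same strand. Each of these neighbours had from 0.103 to 38.1 times the counts of the gene it overlaps. DTL, CDC6, MCM4 and ORC6 overlap no other annotated exon.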

How the data were processed

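Messenger RNA of 18 THESC libraries was prepared with a stranded kit, per the labels' protocols. The submitters' processing notes name STAR 2.6.0c, hg38, R 4.4.1 and edgeR 4.2.2, without their roles; the read counter, its strand setting and its annotation are not given in the sources used here. Raw counts per gene, which were the input here, were deposited by the authors, with a second table of log2 CPM, which was not used. Whether libraries of a group came from separate cultures is not given.

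Genes were filtered with filterByExpr (minimum count 10), leaving 15558 of 78724, and scaled by TMM. One edgeR 4.0.16 quasi-likelihood fit (R 4.3.3) with 1 term per group gave 12 contrasts, with Benjamini-Hochberg adjustment over 15558 genes and a threshold of 0.05. The SE is that of the fitted log2 value, and CPM used TMM-scaled library sizes. Total counts of 11.9 to 33.4 M set the counting precision, and the common biological coefficient of variation was 0.129. All replicate pairs differed beyond sampling noise.

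Alternatives were DESeq2 1.42.0, other scalings, no filter, fits to the groups compared alone, a replicate block and leaving out each library. Lengths came from GENCODE 29 and promoter windows from RefSeq. The 44 genes and the other lists were chosen with earlier results of these data known. By the naming rule any of the 44 genes could be named with its values. In each comparison the called genes with the largest change, up to 12, had to be given with statistics, and 10 index genes in every group.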

Additional observations from a re-analysis of the deposited data

Results flagged for a closer look

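The MPA response differed between lines, by a test of the difference itself, in 7 of the 44 genes for promoter minus NT cells and in 1 for promoter minus U1U2 cells (edgeR's quasi-likelihood test, adjusted over 15558 genes). For promoter minus NT the log2 differences were -0.84 ± 0.12 for DTL, -0.81 ± 0.16 for CDC6, -0.80 ± 0.16 for ORC6, -0.63 ± 0.12 for RRM2, -0.61 ± 0.11 for MCM4, -1.28 ± 0.27 for RMI2 and -1.01 ± 0.25 for GINS3 (SE), where a negative value means a lower response in promoter cells. DTL also differed for promoter minus U1U2 (-0.87 ± 0.11), a call lost in 4 of 19 alternatives. For DTL the responses themselves were -0.87 ± 0.08 in promoter cells, -0.00 ± 0.08 in U1U2 cells and -0.03 ± 0.08 in NT cells. RMI2 and GINS3 had values of opposite sign in promoter and NT cells, at -0.93 ± 0.19 and -0.61 ± 0.17 in promoter cells and 0.34 ± 0.20 and 0.40 ± 0.18 in NT cells, the NT values not called.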

How the results depend on the processing

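Settings moved the calls among all genes, for U1U2 against NT cells in vehicle from 178 to 808 with no filter and 445 with DESeq2. Counts of the 44 genes called are given for each setting that moved them by over 1.5 times. For MPA in U1U2 cells, 0 as reported, upper-quartile scaling, library totals and DESeq2 each called 1 and no filter called 2. For promoter against NT cells in MPA (0) no filter called 1. For U1U2 against NT cells in vehicle (0) library totals called 1 and no filter and DESeq2 called 3 each. For promoter against U1U2 cells in vehicle (5) a fit to those groups alone called 1 and DESeq2 14. For the difference of responses, promoter minus NT (7), no filter called 12 and DESeq2 11, and for U1U2 minus NT (0) no filter called 1. For promoter minus U1U2 (1) DESeq2 called 4, and the replicate block and the fit to those groups alone called 0. Leaving out 1 library at a time gave 12 to 21 for MPA in promoter cells, 0 to 2 in U1U2 cells and 0 to 1 in NT cells. In vehicle it gave 19 to 33 for promoter against NT, 0 to 1 for U1U2 against NT and 2 to 4 for promoter against U1U2. For the difference of promoter and NT responses it gave 3 to 7, for that of promoter and U1U2 responses 0 to 1, and for the remaining comparisons 0 to 0. No call changed direction. The sign of UHRF1, which was not called, depended on the setting. For MPA in promoter cells (0.00 as reported) it was -0.042 with library totals, -0.0084 with no filter and -0.017 with those groups alone, and leaving out 1 library gave -0.19 to 0.39. For promoter against NT cells in vehicle (0.21) leaving out 1 library gave -0.17 to 0.40. The cause of these changes was not tested. Libraries with the same number did not deviate together (r from -0.47 to 0.20 over 27 pairs, with 10 of 54 libraries correlating best with their own number). No pairing by number was thus seen, which does not show that none existed. With the replicate block 23 genes were called for MPA in promoter cells, 29 for promoter against NT and 4 for promoter against U1U2 cells in vehicle, 5 for the promoter and NT difference and 0 for that of promoter and U1U2, where DTL had an adjusted p of 0.0506 by edgeR. The block gave 0 in the other comparisons. Depth limits POLD1, CDT1, POLA2 and E2F2, each with at most 87 counts in any library. Of other called genes, in NT cells in vehicle E2F1 had 27, 20 and 19 counts and GINS3 had 44, 62 and 40.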

Other observations

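Regulators of the G1 to S transition, a list of 27 genes that were all tested, included called genes in all 3 lines. In promoter cells MPA lowered 6 and raised 1, where 15% of all genes were called and 8.4% lowered, with a median log2 fold change of -0.11. E2F7, a repressor of E2F target genes, was among those that fell (-0.80 ± 0.12, adjusted p = 0.000150), with 14.01, 18.6 and 17.7 CPM in promoter cells in MPA, against 30.7, 30.8 and 25.9 in promoter cells in vehicle. E2F7 was higher in promoter than NT cells in vehicle (1.11 ± 0.13) and than U1U2 cells in vehicle (0.76 ± 0.12), and its MPA response differed between promoter and NT cells by -0.73 ± 0.18 (adjusted p = 0.0489). RBL1, a member of the retinoblastoma family, fell as well (-0.37 ± 0.08), as did TFDP1, the partner of E2F proteins (-0.50 ± 0.16).

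CCND1, cyclin D1, fell with MPA in promoter cells (-0.61 ± 0.07), with 347, 358 and 350.2 CPM in MPA, against 511, 576 and 528 in vehicle, and in NT cells (-0.40 ± 0.07), with 329.8, 311 and 341 CPM in MPA, against 442, 432 and 419.9 in vehicle. In U1U2 cells it had 348, 382 and 326 CPM in MPA, against 392, 376 and 396 in vehicle (-0.14 ± 0.07, not called). CDKN1B, the inhibitor p27, fell as well in promoter cells (-0.61 ± 0.14) and in NT cells (-0.63 ± 0.14) and had -0.32 ± 0.14 in U1U2 cells, not called, and CDKN2C, an inhibitor of the cyclin D kinases, fell in promoter cells (-0.51 ± 0.12). MYC rose with MPA in all 3 lines, by 0.45 ± 0.13 in promoter, 0.56 ± 0.12 in U1U2 and 0.61 ± 0.13 in NT cells. CDKN1C, the inhibitor p57, was lower in promoter than NT cells in vehicle (-1.23 ± 0.24, adjusted p = 0.00387).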
